A study of Mus musculus with 4 samples.

Results

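The genes described here encode enzymes of mitochondrial fatty acid oxidation, the pathway that breaks long-chain and shorter acyl chains down to acetyl-CoA and hands the electrons to the respiratory chain. They were chosen by name as Acadm, Acadl, Acadvl, Acads, Hadh, Hadha, Hadhb, Cpt1b, Cpt2 and Etfdh, and every probe set annotated to one of these symbols was used. Of the 10 genes, 9 had a probe set of their own, 14 probe sets in all among the 22690 on the array, and these 9 are among 12394 genes with a named probe set. Cpt1b had no probe set of its own. The probe set that carries its symbol is annotated to the neighbouring kinase gene Chkb and the read-through locus Gm44502 as well, so it was described apart and not counted.

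Gene expression was measured on 4 Affymetrix arrays in mammary tissue of nulliparous female C57BL/6 mice kept on standard chow, either lacking Sca-1 (stem cell antigen-1, a surface protein of stem and progenitor cells) or wild-type littermates. Both genotypes, wild type and Sca-1 KO, contributed a mammary gland group taken at 6 weeks, for which no carcinogen is named in the group labels, and a group of MP-DMBA mammary tumors. The tumor mice had received 15 mg of MP, a depot progestin, under the skin and then 4 weekly doses of 1 mg of DMBA, a hydrocarbon carcinogen, by gavage, and their age at tumor collection is not given in the labels. Each group was 1 array of RNA pooled from 5 mice. No group therefore has a replicate error, no test was made, and every difference below is a difference between 2 pools. The protocol text on MP and DMBA is attached to all 4 samples, but the tumor groups alone are labelled as treated. If the glands were untreated, treatment and tissue cannot be told apart, and age may differ as well.

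Fatty acids enter the matrix as carnitine esters. The CPT1 enzymes of the outer membrane, of which Cpt1b is the form of muscle and brown fat, make the ester, and Cpt2 of the inner membrane turns it back to acyl-CoA. Each round of the spiral then starts with an acyl-CoA dehydrogenase matched to chain length, from very long (Acadvl) and long (Acadl) to medium (Acadm) and short (Acads). The trifunctional protein, built of Hadha and Hadhb, carries out the next steps on long chains, and Hadh is the hydroxyacyl-CoA dehydrogenase for shorter ones. Electrons from the dehydrogenases pass through the electron transfer flavoprotein to Etfdh, which reduces ubiquinone. The pathway is most active in muscle, heart, liver and brown fat, and PPAR and oestrogen-related receptors are known regulators of its genes.

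Promoter windows were taken from RefSeq (GRCm38.p6) to show how the genes sit. Of the 10 genes, 9 had a window. The windows below cover the 250 bases before the start site. Hadha and Hadhb, the subunits of the trifunctional protein, are transcribed away from each other from starts separated by 272 bases, and their windows share 228 bases, in capitals in the Hadhb window (chr5:30155003-30155252, plus strand). In the windows of Acadm (chr3:153944644-153944893, minus strand) and Acadvl (chr11:70015429-70015678, minus strand) the capitals mark AGGTCA, the core element of nuclear receptors, on either strand. The Hadhb window is shown for the stretch it shares with Hadha, and the other two because they hold AGGTCA.
Hadhb: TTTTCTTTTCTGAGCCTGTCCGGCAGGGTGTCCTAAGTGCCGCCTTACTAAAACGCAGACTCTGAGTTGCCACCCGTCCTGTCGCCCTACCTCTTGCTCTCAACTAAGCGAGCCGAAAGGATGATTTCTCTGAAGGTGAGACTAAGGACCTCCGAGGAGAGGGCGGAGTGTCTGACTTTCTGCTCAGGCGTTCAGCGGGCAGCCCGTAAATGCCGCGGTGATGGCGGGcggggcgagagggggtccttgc
Acadm: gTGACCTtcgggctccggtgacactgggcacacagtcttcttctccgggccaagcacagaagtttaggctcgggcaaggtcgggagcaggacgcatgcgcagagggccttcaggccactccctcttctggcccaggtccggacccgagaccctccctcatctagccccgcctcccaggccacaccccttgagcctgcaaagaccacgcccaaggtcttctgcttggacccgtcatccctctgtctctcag
Acadvl: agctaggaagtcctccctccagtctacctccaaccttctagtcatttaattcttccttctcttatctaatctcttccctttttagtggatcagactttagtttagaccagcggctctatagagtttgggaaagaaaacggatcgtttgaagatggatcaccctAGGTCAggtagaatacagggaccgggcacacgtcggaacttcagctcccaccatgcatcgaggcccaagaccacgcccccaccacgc

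AGGTCA on either strand was present in 2 of the 9 windows, Acadm and Acadvl, and in 14.0% of all 32851 windows of this length. The extended element TNAAGGTCA of oestrogen-related receptors, which contains AGGTCA, was in none of the 9 and in 1.14% of all windows. A direct repeat of the kind PPAR binds, AGGNCA followed by itself with any 1 base between, was in none of the 9 and in 0.338% of all. The long element of nuclear respiratory factor 1, GCGC followed by any 1 base and TGCGC, was in 1, Etfdh, and in 3.74% of all. TGCGCA, a core that can overlap the long element and reads the same on both strands, was searched after the result for the long element had been seen. It was in 2 windows, Etfdh and Acadm, and in 6.43% of all. The GC box GGGCGG was in 6 of the 9 (Acadl, Hadh, Cpt2, Hadha, Hadhb and Acads) and in 32.7% of all windows. The match of Hadha lies in the stretch shared with Hadhb and is the same site as a match of Hadhb, so these windows are not independent. CCAAT was in 2 (Etfdh and Hadh) and in 33.8% of all windows. Each element was searched on both strands, and a match is a description of letters, not a binding site.

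Signals below are the deposited linear values. A difference is on the log2(signal + 27.3) scale, a gene is represented by the probe set with the highest mean of these log2 values over the arrays, and lower or higher in a count means at least 2-fold. Where signals of a gene are listed, wild type comes before knockout. Signals of different probe sets are not on a common scale and are compared only between arrays. Median signals over all probe sets were between 151 and 199 on the 4 arrays, and having 4 arrays in all limits the precision. The 3' to 5' ratio of the beta-actin control was 2.35 in the wild-type gland and between 1.23 and 1.61 on the other arrays. As a gauge of measurement noise, the SD of a difference, taken between paired probe sets that share a gene, was 0.64 for tumor against gland in wild type, 0.57 in knockout, 0.26 for the genotypes in gland and 0.23 in tumor (2766 genes), which covers no difference between mice. The 9 genes each exceeded the floor of 168, the median of all values, on all 4 arrays by the representing probe set.

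**Figure D1:**
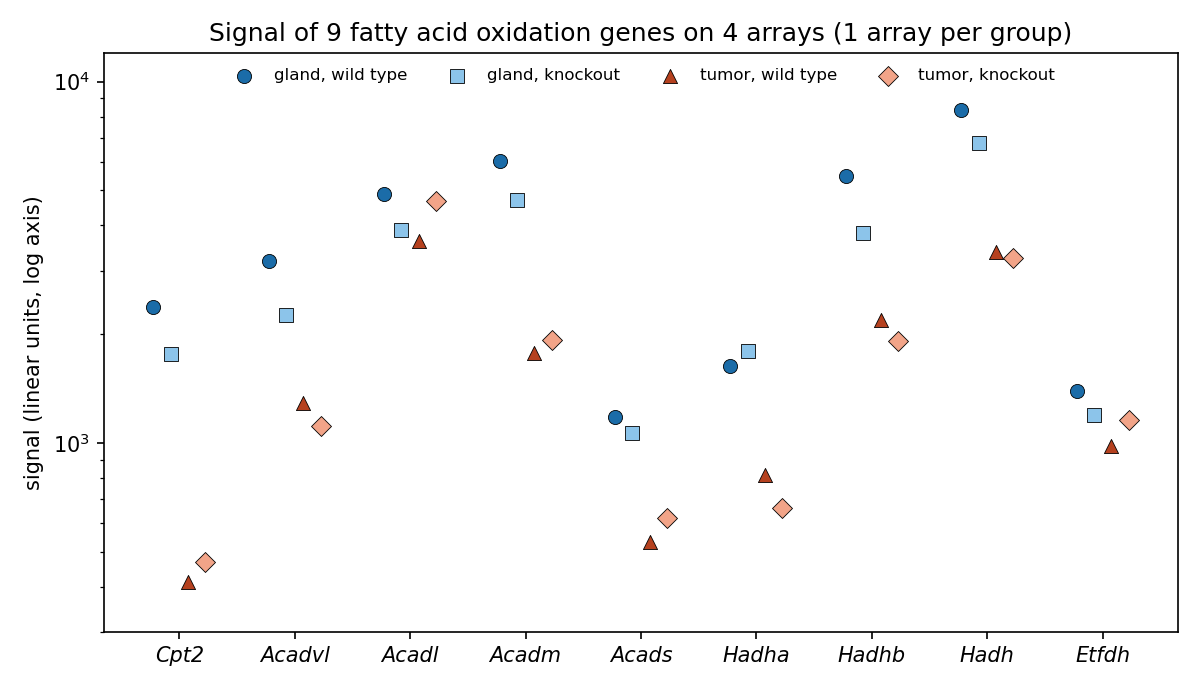
Signal of the representing probe set of each of the 9 genes on the 4 arrays, in linear units on a log axis, with 1 point per array. In 8 genes both tumor points lie below both gland points, as in 41.4% of the 8283 genes compared, and in none do both lie above, as in 37.8%. The gap is narrow in Etfdh (1191 in the knockout gland, 1160 in the knockout tumor), whereas the points of Acadl interleave, with 4879 and 3896 in gland and 3633 and 4667 in tumor.

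Most of the oxidation genes were lower in the tumors than in the glands. In wild type 6 of 9 were lower and none was higher, where 16.6% of the 8283 genes compared were lower and 12.9% higher. In knockout 4 of 9 were lower and none higher, against 17.9% and 12.4% of all genes. The median difference was -1.29 in wild type and -0.998 in knockout, beside -0.03 and -0.04 over all genes. The count in knockout turns on genes that lie close to the threshold. Acadvl and Hadhb were at -0.998 and -0.99, just short of it. With the probe set of highest mean linear signal in place of highest mean log2 value, an alternative chosen after seeing the data, Hadhb was at -1.33 and the count was 5. At 1.5-fold 7 of 9 were lower in each genotype, against 27.2% and 28.6% of all genes, and none was higher, against 23.3% and 23.1%. With arrays brought to a common median, which moved the median of all genes from -0.04 to 0.31 in knockout, the count in knockout was 2 and the median -0.67, and 1035 genes were lower and 1696 higher in place of 1479 and 1023. Relative to all genes the median in knockout was then -0.98, close to the -0.96 without centring.

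Among the 9 genes, by representing probe sets, Cpt2 showed the widest gap between tissues. Cpt2, the inner-membrane transferase, had signals of 2374 and 1758 in the glands and 413 and 468 in the tumors. The tumors were low in both genotypes, 5.45-fold lower in wild type and 3.60-fold in knockout. Both tumors lay below both glands, which was so for 41.4% of all genes. A dimmer Cpt2 probe set that stayed below the floor had 127.5, 114.6, 23.1 and 25.2 in the same order. The probe set shared by Cpt1b, Chkb and Gm44502 had 258.5 and 226.2 in the glands and 13.8 and 21.9 in the tumors. It was above the floor in the glands alone, and which of the 3 loci gives the signal cannot be told apart. Counted as Cpt1b, a choice made after its values were seen, it would bring the lower genes of 10 to 7 for wild type and 5 for knockout.

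The acyl-CoA dehydrogenases differed among themselves. Acadm, the medium-chain enzyme, had signals of 6018 and 4712 in the glands and 1777 and 1929 in the tumors, 3.35-fold and 2.42-fold lower. Acadvl, for very long chains, had 3179 and 2257 in the glands and 1287 and 1116 in the tumors, 2.44-fold lower in wild type. Acads, for short chains, had 1183 and 1067 in the glands and 533 and 621 in the tumors, at -1.11 in wild type and -0.76 in knockout. For these 3 enzymes both tumors lay below both glands, which was so for 41.4% of all genes.

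Acadl, the long-chain dehydrogenase, did not share this pattern. Its signals were 4879 and 3896 in the glands and 3633 and 4667 in the tumors. The knockout tumor lay above the knockout gland and the values of the tissues overlapped, at -0.42 in wild type and 0.26 in knockout. The latter turned to -0.06 under cyclic loess. A second Acadl probe set was below the floor on all 4 arrays (41.8, 28.3, 11.1 and 21.8) and gives no separate reading.

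The subunits of the trifunctional protein were both near or past 2-fold lower. Hadhb, the thiolase subunit, had 5492 and 3818 in the glands and 2193 and 1912 in the tumors. Its other probe set, the brighter by mean linear signal, had 6056, 4579, 1568 and 1805, a wider gap, 3.81-fold in wild type against 2.51-fold in knockout. Hadha, the subunit with hydratase and long-chain dehydrogenase activity, had 1637 and 1798 in the glands and 814 and 661 in the tumors, differences of -0.99 and -1.41. Hadha was thus the gene among the 9 with the smallest knockout tumor signal relative to its wild-type tumor and the only one with a higher value in the knockout than in the wild-type gland, although that sign turned to -0.09 when arrays were brought to a common median. Hadhb was at -0.52 between the glands, or -0.40 by its other probe set, and Hadha at 0.13. The probe set SD of 0.26 is that of 1 such value, and that of a gap between 2 genes is larger. No difference between the subunits is therefore called. Their start sites face the same intergenic stretch shown above.

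Hadh, the dehydrogenase for shorter chains, was measured by 3 probe sets, all lower in tumor. The brightest had 8351 and 6781 in the glands and 3371 and 3247 in the tumors, 2.47-fold and 2.08-fold lower. The next had 4303, 3473, 1741 and 1662, or 2.45-fold and 2.07-fold. The dimmest had 451 and 372 in the glands and 40.9 and 28.8 in the tumors, below the floor there, and was at least 2.68-fold and 2.21-fold lower. Here and in what follows, a value below the floor is set to 168 and the fold of the linear signals is then given as at least that size, since a fold against such a signal depends on the offset. With the mean of its probe sets in place of the brightest, Hadh was at -1.65 in knockout. Etfdh, where electrons leave the pathway, had 1389 and 1191 in the glands and 978 and 1160 in the tumors. The knockout tumor and knockout gland differed by -0.04 and the wild-type pair by -0.49, so Etfdh passed 2-fold in neither genotype.

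**Figure D2:**
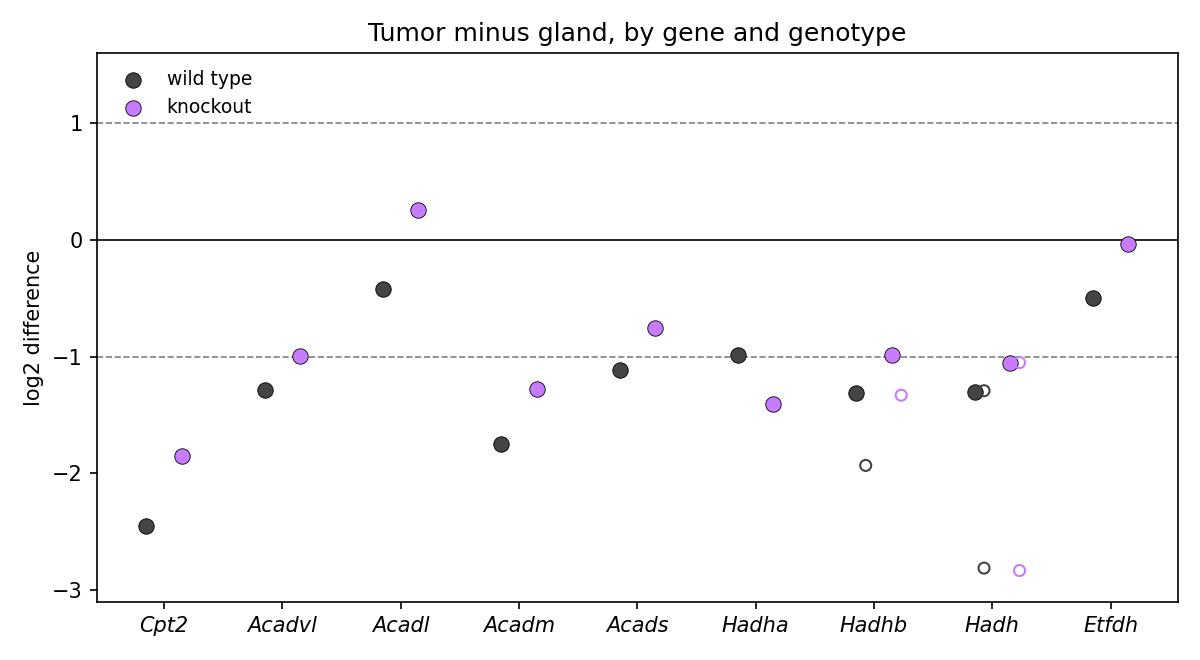
Log2 difference of tumor minus gland for each gene in wild type and knockout. Filled points are the representing probe sets, open points other probe sets of the gene that reached the floor on at least 1 array, and dashed lines mark 2-fold. Cpt2 is lowest by filled points at -2.45 and -1.85, and Acadl is at -0.42 and 0.26.

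The other genes of fatty acid use varied by group, from uptake and release, where 9 of 11 were lower in wild type, to the carnitine shuttle with 1 of 7 and ketone bodies with 0 of 3. Of 81 further genes of the pathway 71 had a named probe set and 61 were compared. In wild type 31 were lower and 2 were higher, Bdh1 and the corepressor Nrip1, the latter named after its value was seen. In knockout 28 were lower and Bdh1 was the 1 higher gene, with medians of -1.25 and -0.86. Of all genes 16.6% and 17.9% were lower.

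Of the 11 other genes of the carnitine shuttle and acyl-CoA activation, 7 were compared and 1 was lower in wild type and 2 in knockout. Crat, a carnitine acetyltransferase, was at least 5.04-fold and 4.54-fold lower in wild type and knockout, with signals of 847 and 763 in the glands and 98.2 and 113 in the tumors. Slc22a5, the plasma membrane carnitine transporter, was at -0.87 and -1.17. The list medians were -0.28 and -0.66. Cpt1a, the CPT1 form of liver and many other tissues, was at -0.28 and -0.88, and Acsl4, an acyl-CoA ligase, at -0.76 and -0.66.

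Among 18 further genes of mitochondrial beta-oxidation, related acyl-CoA steps and the electron transfer flavoprotein, 8 were lower in wild type and 7 in knockout, and none was higher. Ivd, a dehydrogenase of leucine breakdown, was 8.03-fold and 4.78-fold lower. Pcca, a subunit of propionyl-CoA carboxylase, was 4.73-fold and 3.57-fold lower, and Etfb, the beta subunit of the electron transfer flavoprotein, 4.16-fold and 4.11-fold. Acad11, an acyl-CoA dehydrogenase, was 3.69-fold and 2.61-fold lower. Etfb was thus among the lower genes. Etfa of the same flavoprotein, named after its value was seen, was at -0.49 and -0.45. Etfa and Etfdh, to which the flavoprotein hands electrons, were both within 2-fold.

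Of 10 peroxisomal beta-oxidation genes compared, 5 were lower in wild type and 4 in knockout. Abcd2, a peroxisomal fatty acyl transporter, had 635 and 869 in the glands and 1.8 and 7.7 in the tumors, and Acaa1b, a peroxisomal thiolase, 746 and 510 against 19.5 and 23.5. The tumor signals of both were below the floor. Abcd2 was at least 3.78-fold and 5.17-fold lower and Acaa1b at least 4.44-fold and 3.03-fold. Pex11a, a factor of peroxisome division, was 3.19-fold and 3.31-fold lower and Ehhadh, the peroxisomal bifunctional enzyme, at least 2.58-fold and 2.47-fold.

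Of 13 regulators compared, 8 were lower and 1 higher in wild type and 7 lower in knockout. Pdk4, a kinase that restrains pyruvate dehydrogenase and so favours fat as fuel, had 3238 and 1868 in the glands and 141 and 179 in the tumors, at least 19.3-fold lower in wild type and 9.19-fold lower in knockout. Acacb, the mitochondrial acetyl-CoA carboxylase whose product inhibits CPT1, had 1216 and 692 in the glands and 20.1 and 35.6 in the tumors, at least 7.23-fold and 4.12-fold lower. Pparg, the receptor of fat cell differentiation, had 64.2 and 76.0 in the tumors and was at least 11.1-fold and 7.97-fold lower. The phosphatidate phosphatase Lpin1 was 8.42-fold and 10.7-fold lower. Ppargc1a, a coactivator of mitochondrial genes, had signals of 234 and 107 in the glands and 48.3 and 73.3 in the tumors and was at least 1.39-fold lower in wild type. In knockout, where it was below the floor in both tissues, it was at -0.42, a sign that turned under quantile normalization and cyclic loess. Esrra, an oestrogen-related receptor, was between 330 and 388 on all 4 arrays and differed by 0.20 in wild type and -0.10 in knockout, the latter turning positive under each other scaling. The named probe set of Ppara was below 12 on every array, so its level was not measured.

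Of 11 uptake and release genes compared, 9 were lower in wild type and 8 in knockout. Lipe, the hormone-sensitive lipase, had 64.6 and 74.6 in the tumors and was at least 19.4-fold and 21.8-fold lower. The fatty acid translocase Cd36 was 15.7-fold and 26.5-fold lower and the triglyceride lipase Pnpla2 11.9-fold and 9.99-fold. The fatty acid transporter Slc27a1 was at least 11.1-fold and 10.4-fold lower. Of the 3 ketone body genes compared 1 was higher in both genotypes and none was lower. Bdh1, which interconverts acetoacetate and hydroxybutyrate, had signals of 117 and 160 in the glands, below the floor, and 1136 and 1276 in the tumors, at least 6.76-fold and 7.59-fold higher. Oxct1, which activates acetoacetate for oxidation, was at 0.69 and 0.57, and Acat1, an acetoacetyl-CoA thiolase, at -0.82 and -0.56.

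Beside the pathway, 2 lists of other mitochondrial genes were measured, and how they differ from the oxidation genes was not tested. Of 16 tricarboxylic acid cycle genes 3 were lower in wild type and 2 in knockout, where 16.6% and 17.9% of all genes were. The cycle genes had medians of -0.76 and -0.43. They were led by Dld, the lipoamide dehydrogenase shared by several dehydrogenase complexes, at -1.60 and -1.40. The succinate dehydrogenase subunit Sdha was at -1.07 and -0.93, citrate synthase, Cs, at -1.06 and -0.70, and Ogdh, of the oxoglutarate dehydrogenase complex, at -0.95 and -1.04. Of 14 genes of mitochondrial membranes and maintenance 1 was lower in wild type, the import factor Timm44 at -1.02, and none in knockout, where Timm44 was at -0.97. The import pore Tomm40 was at 0.93 and 0.39, the DNA polymerase Polg at -0.84 and -0.74 and the chaperonin Hspe1 at 0.22 and 0.89. Their medians were 0.11, negative under quantile normalization and cyclic loess, and 0.32.

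**Figure D3:**
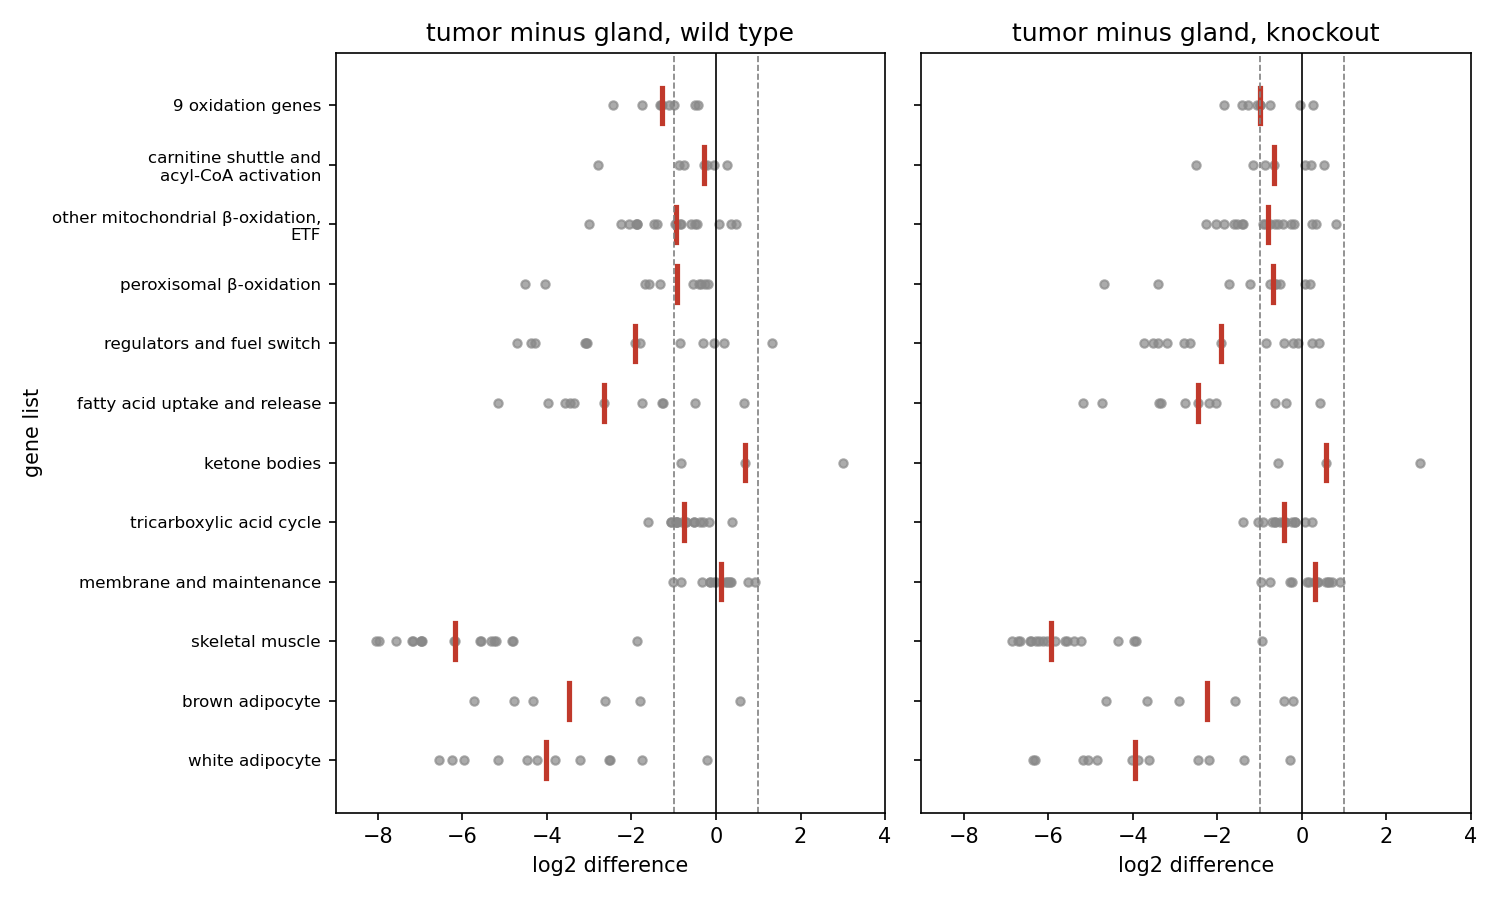
Log2 difference of tumor minus gland in wild type (left) and knockout (right), with 1 grey point per compared gene and a red bar at the median of each list; dashed lines mark 2-fold. The oxidation genes lie at medians of -1.29 and -0.998, between tricarboxylic acid cycle genes at -0.76 and -0.43 and skeletal muscle genes at -6.18 and -5.94.

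Markers of skeletal muscle and of white and brown fat were low in the tumors too. The summed signal of the 18 skeletal muscle genes was 82060 and 79311 in the glands and 1047 and 2034 in the tumors. The creatine kinase Ckm had 6632 and 5917 against 18.0 and 42.2, and the skeletal actin Acta1 had 7121 and 7159 against 160 and 428. The sum of 12 white adipocyte genes was 72172 and 70959 in the glands and 12970 and 13689 in the tumors, with the adipokine Adipoq at 8382 and 7674 against 350 and 451. In each genotype 11 of the 12 were lower. Scd1 of that list, named after its value was seen, was within 2-fold, at 7260 and 7477 against 6243 and 6112, a large part of the tumor sums. The sum of 8 brown adipocyte genes was 6392 and 3620 against 463 and 459, although the deiodinase Dio2 of that list, named after its value was seen, was at 0.56 in wild type. No gene of these lists was at 0 on any array, and the uncoupling protein Ucp1 was at 0.9 and 0.6 in the tumors. The epithelial keratin Krt8, above the floor on all arrays, had 6398 and 4987 in the glands and 9258 and 9811 in the tumors. Krt14, a basal keratin, had 624 and 562 against 4518 and 5448. In bulk tissue, fewer cells of a type and less RNA per cell cannot be told apart, and the part of muscle and fat content in the lower values of the oxidation genes was not tested.

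The oxidation genes differed little between knockout and wild-type gland. The genotype labels were not checked on the signal of the Sca-1 gene here. None of the 9 was past 2-fold in either direction, where 0.254% of all genes were lower and 1.11% higher. At 1.5-fold the count was also 0, against 1.26% and 5.78% of all genes. The background split depends on the scaling, with 21 genes lower and 92 higher as deposited, 34 and 66 under quantile normalization, 39 and 44 with a common median and 30 and 52 under cyclic loess. The signal was lower in the knockout gland for 8 of the 9, where it was lower for 47.7% of all genes, and higher for Hadha. As deposited it was also lower for 18 of 18 further beta-oxidation genes and for 16 of 16 tricarboxylic acid cycle genes. Acat1 turned positive under quantile normalization, and Dld and Mdh2, the latter named after its value was seen, under quantile normalization and cyclic loess. These values were at most 0.07. The median of the 9 was -0.32 beside 0.01 over all genes. Relative to all genes it was between -0.34 and -0.19 under the scalings listed above.

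Single differences ran from -0.52 for Hadhb and -0.49 for Acadvl to -0.15 for Acads and 0.13 for Hadha, all but that of Hadhb within 2 SD of the probe set noise. Cpt2 was at -0.43, Acadm at -0.35, Acadl at -0.32, Hadh at -0.30 and Etfdh at -0.22. Where several probe sets of a gene were above the floor, they had the same sign, with -0.52 and -0.40 for Hadhb and -0.30, -0.31 and -0.26 for Hadh. Hadhb passed 2 SD by its representing probe set and not by its other. Since the noise covers no difference between mice, no difference is called for any single gene of the 9. The median of the 9, -0.32, was larger in size than the error of a median of 9 taken from the probe set SD, 0.11. That error covers no difference between mice either, and the shared shift was not tested. The negative sign of 8 of the 9 was also that of the lists above as deposited.

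Of 61 other genes of the pathway compared between the glands none was lower, against 0.254% of all genes. The 1 higher gene, against 1.11% of all genes, was Nrip1, a corepressor of nuclear receptors, with signals of 108 and 273. At 1.5-fold 4 were lower and 1 was higher, against 1.26% and 5.78% of all genes. The median was -0.14. Pdk4 was at -0.78, Acacb at -0.79 and Ppargc1a at -0.96, with signals of 234 and 107, all within 2-fold. With arrays brought to a common median these 3 were past 2-fold lower, at -1.01, -1.01 and -1.18, and Nrip1 was within 2-fold. Of all genes 0.473% were then lower. Ppargc1a also passed 2-fold under quantile normalization, cyclic loess and an offset of 1. The tricarboxylic acid cycle genes had a median of -0.21. Of 6 brown adipocyte genes compared 5 were lower on the same array, with a median of -0.81. Past 2-fold lower were 2 of the 6, against 0.254% of all genes. Among the lower genes Ucp1 had 754 in wild type and 183 in knockout. Dio2, named after its value was seen, was higher at 0.40, with both gland signals below the floor. All 10 leukocyte genes compared were higher, 3 of them past 2-fold, with a median of 0.70 and a summed signal of 11262 and 16686. Among them Ptprc was at 0.69 with signals of 1881 and 3053. Fibroblast genes were higher for 8 of 8 with a median of 0.30 and endothelial genes for 4 of 6 with a median of 0.30. Luminal genes had a median of -0.11, with 1 of 11 past 2-fold lower, and basal genes one of 0.12 that turned negative with a common median. White adipocyte genes had a median of 0.01, negative with a common median as well. Skeletal muscle genes had a median of -0.06 that turned to 0.02 under quantile normalization, and the beta-actin 3' to 5' ratio was 2.35 and 1.61. The part of any of these in the oxidation genes was not tested.

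**Figure D4:**
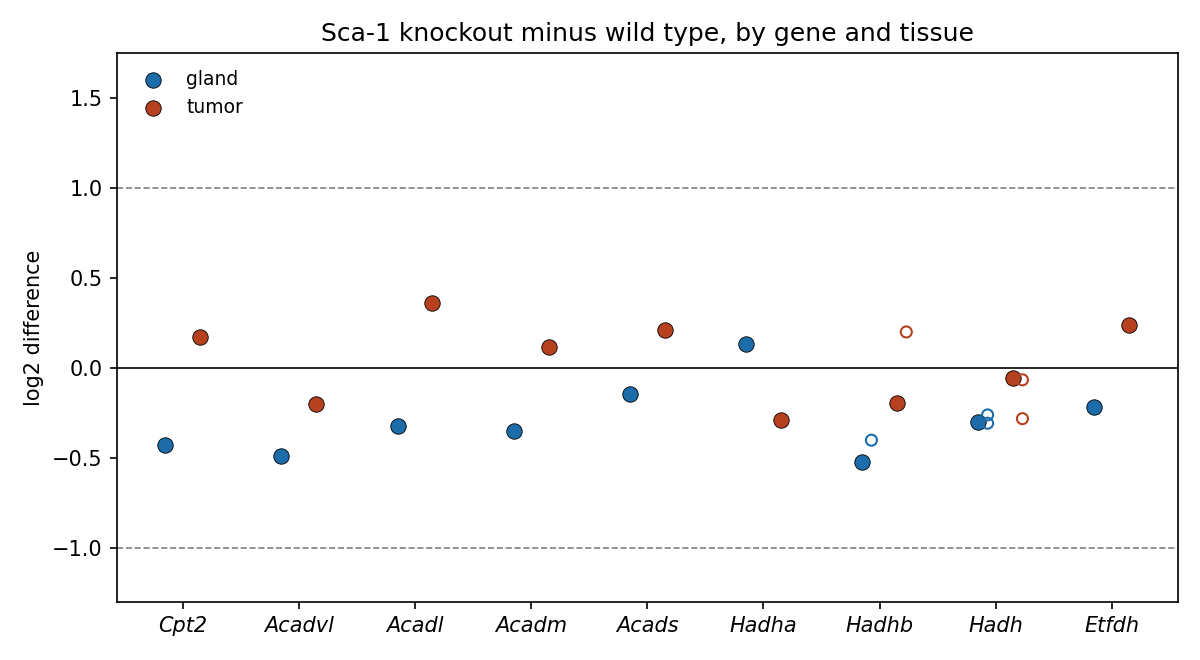
Log2 difference of Sca-1 knockout minus wild type for each gene in gland and tumor, with filled points for the representing probe set, open points for other probe sets that reached the floor on at least 1 array, and dashed lines at 2-fold. All points lie within 2-fold, and the gland points of all genes but Hadha, whose sign turned with a common median, lie below 0.

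In the tumors the genotypes differed by at most 0.36 in size, without a common sign. None of the 9 passed 2-fold, where 1.94% of all genes were lower and 2.12% higher, and none passed 1.5-fold, where 5.34% were lower and 6.64% higher. Knockout signals were higher for 5 and lower for 4, with a median of 0.12 beside 0.01 over all genes. Acadl was at 0.36, Etfdh at 0.24, Acads at 0.21, Cpt2 at 0.17 and Acadm at 0.12. Hadha was at -0.29, Acadvl and Hadhb both at -0.20 and Hadh at -0.05. The probe sets of Hadhb disagreed in sign, at -0.20 and 0.20, and the mean of them was at 0.00. The probe set SD of 0.23 is of the size of these values. Of the other 61 pathway genes none passed 2-fold, with Cd36 at -0.85 and a list median of 0.08. Markers of other cells differed between the same arrays. Skeletal muscle genes were higher in the knockout tumor for 16 of 18, 4 of them past 2-fold, with a median of 0.59 and a summed signal of 1047 in wild type and 2034 in knockout, where 15 of 18 were below the floor. Fibroblast genes had a median of -0.58 and a summed signal of 25914 and 18694. Of the 8 genes 6 were lower, 2 of them past 2-fold, and 2 were higher. The higher genes included Fn1, named after its value was seen, past 2-fold at 1.59. Of 12 basal and keratinising genes 5 were past 2-fold lower and 1 higher. Brown and white adipocyte, luminal, leukocyte and endothelial genes had medians of 0.20, 0.17, 0.16, -0.11 and -0.14. The part of any of these was not tested.

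Knockout minus wild type was more positive in the tumor than in the gland for 8 of the 9, and for 50.3% of all genes. Values ran from -0.42 for Hadha to 0.68 for Acadl, with a median of 0.36, and the SD for a single gene, by probe sets, was 0.35. Signs were opposite in the tissues for 6 genes, Acadm, Acadl, Acads, Hadha, Cpt2 and Etfdh, and for 49.0% of all genes. In none of them was the size at least 0.5 in both tissues, and this difference was not tested. The comparisons of tumor with gland and of knockout with wild type share arrays and are not independent of each other.

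By their profile over the 4 arrays, the genes nearest to the median of the 9 were 1600014C10Rik, Aak1, Bscl2, Laptm4b and Agpat3, at Euclidean distances of 0.03 to 0.10 on the centred log2 scale. Bscl2, for example, had signals of 3716 and 2981 in the glands and 1561 and 1438 in the tumors. Bscl2 encodes seipin, a protein of lipid droplet formation, Agpat3 an acyltransferase of phospholipid synthesis and Aak1 a kinase of clathrin-mediated endocytosis. Among the 9 themselves Acadvl, Hadh and Hadhb lay nearest, at 0.10 to 0.13, and Etfdh, Cpt2 and Acadl farthest, at 0.93, 1.04 and 1.13. Of 8274 other genes, 335 lay within 0.38, the median distance of the 9, and 3430 within 1.13, the distance of Acadl. The reference profile is the median of the 9 themselves, so their own closeness to it is partly built in.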

How the data were processed

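RNA pooled from 5 mice per group was labelled with biotin and hybridised to 1 Affymetrix array per group, per the labels' protocols. The deposited values are linear intensity values, 1 for each of 22690 probe sets, and for the software behind them no name is given in the labels. In the deposited file the mean of each array without the lowest and highest 2% of values was 500.0, so the arrays had been scaled to a common level.

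Gene names are those of GEO's platform annotation, brought to RefSeq symbols through the gene ID. Of them 20393 had 1 symbol, 691 had several and were not used for naming, and 1606 were not listed. Values were set to log2(intensity + 27.3), the offset being the lower quartile of all values. A gene was represented by its probe set of highest mean log2 value and compared where its highest value reached the median of all values, 168, which left 8283 genes. Samples were grouped by their titles. The named genes are all members with every probe set, up to 4 genes of each pathway and mitochondrial list by size of difference, marker genes of other cells, Ppara, Ppargc1a, Esrra and Pdk4, and the 5 nearest profiles. The members and lists were chosen with earlier results of these data known. Lists of luminal, basal, fibroblast, leukocyte and endothelial markers were also measured, with medians for tumor minus gland in wild type of 0.80, 2.99, -1.29, -0.78 and -1.29, and in knockout of 1.31, 1.25, -1.36, -1.55 and -1.90.

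With 1 array per group no test was made. Alternatives changed the offset, the scaling (limma 3.58.1 in R 4.3.3), the probe set rule, the filter and the fold threshold. The procedure (Python 3.11.15, pandas 2.3.3) was tested on simulated data. Promoter windows came from RefSeq tables of GRCm38.p6; the array files name no genome build.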

Additional observations from a re-analysis of the deposited data

How the results depend on the processing

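The medians of the 9 genes ranged from -1.39 to -1.17 for tumor minus gland in wild type, from -1.25 to -0.67 in knockout, from -0.55 to -0.22 for the genotypes in gland and from 0.10 to 0.17 in tumor. Against the error of a median of 9 taken from the probe set SD, 0.24 for tumor minus gland in knockout and 0.11 for the genotypes in gland, they moved with median centring, to -0.67 and -0.55, and the first also with cyclic loess, to -1.25. The median difference of genotype differences moved from 0.36 to 0.56 with median centring. The count of genes lower in the knockout tumor than in the knockout gland, 4 as reported, was 2 with median centring of each array and 7 at 1.5-fold, and between 4 and 6 under the other alternatives. In wild type it was between 5 and 7. The other counts stayed at 0. Among single genes, Hadh in knockout moved from -1.06 to -1.65 with the mean of its probe sets. The signs of Hadha in gland, Etfdh and Acadl in knockout and Hadhb between tumors turned under some settings, all for values within 2-fold. No paired analysis was possible because each group holds 1 array and the labels give no replicate numbers. Represented by the probe set of highest mean linear signal, chosen after seeing the data, Hadhb was at 0.20 between tumors and the count in knockout was 5. With 1 pool per group, differences between mice were not measured, and the cause of the changes with scaling was not tested. Signals below 168, the median of all values, were treated as low, and no background level was measured.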
